A study of Rattus norvegicus with 16 samples.

Results

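The genes described here encode the nuclear part of the respiratory chain and of ATP synthase. They were chosen by name from the annotation of the array: every probe set with 1 gene symbol that begins with Nduf, Sdh, Uqcr or Atp5, or with Cox followed by a digit from 4 to 8, without Cox4i1, Cox4i2 and pseudogene names. Where a gene had several probe sets, the one that was brightest on average over the 16 arrays stands for it. The rule found 79 of the 14324 genes measured: 36 belong to complex I, 7 to complex II, 7 to complex III, 13 to complex IV and 16 to complex V. It uses names only, so besides 71 subunits it takes in 7 assembly or supercomplex factors (Ndufaf1, Ndufaf3, Ndufaf4, Sdhaf1, Sdhaf2, Sdhaf3 and Cox7a2l) and Atp5if1, the inhibitor of ATP synthase.

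RNA came from the retinae of newborn rats in a model of oxygen-induced retinopathy, in which a resistant strain, Fischer 344 (F344), was set against a susceptible one, Sprague Dawley (SD). From within 12 h of birth, treated litters and their dams breathed 80% and 21% oxygen in alternating turns of 24 h, a regime called cyclic hyperoxia, and age-matched controls breathed room air. Retinae were taken at post-natal day 5 or day 6, which gives 8 groups: F344 or SD, cyclic hyperoxia or room air, day 5 or day 6. Each group holds 2 arrays, and each array a pool of RNA. The design text mentions 3 rats and 2 litters, without making clear whether these made up 1 pool or both. The labels do not say which oxygen level the treated rats had breathed just before each day. No genotype other than the strain, and no other agent, is given. P-values here measure the spread between pools, and precision is limited by having 2 arrays a group. In whole retina, more cells of a type and more RNA per cell cannot be told apart.

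Complexes I and II pass electrons from NADH and succinate to ubiquinone, complex III passes them on to cytochrome c, and complex IV gives them to oxygen. The protons that complexes I, III and IV move across the inner membrane drive complex V, which makes ATP. All subunits of complex II and most of the others are encoded in the nucleus, while the mitochondrial genome encodes the remaining catalytic cores. The retina is known for its high use of oxygen, and photoreceptors hold many of its mitochondria.

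Values are log2 expression values, so a difference of 1 is a doubling of the array signal. Of the members, 74 lay above the median level of all genes, 6.14, and member means ran from 3.99 (Cox8c) to 11.73 (Uqcrb). Sdhaf1 (5.26) and the tissue-restricted isoforms Cox6a2 (4.64), Cox8b (4.11) and Cox8c (3.99) lay under 5.452, the lowest median of any array, so that their values may be mostly background. Markers of retina were present: rod genes averaged from 6.66 (Gnat1) to 11.3 (Sag), and skeletal muscle genes from 4.13 (Des) to 6.18 (Acta1). In the pigment epithelium list Rlbp1 (10.63) and Ttr (8.98) were high, and Rpe65, Best1 and Tyr averaged at most 4.58. Of the erythroid list Hbb averaged 7.33 and the others at most 4.75. Carry-over of other tissue or blood was not tested. Replicate 2 of F344 hyperoxia day 6 had the narrowest spread of values of all arrays (interquartile range 3.15, against up to 3.53), and the pair it belongs to had the lowest correlation between replicates (r = 0.987 across genes, which are not independent). Counts of calls, and the changes of some members that it moves, are given with and without it.

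Promoters show what the members share in sequence. RefSeq promoters of the assembly GRCr8, 300 bases around the start site, were matched for 72 members and for 11823 measured genes. The letters CCGGAAG, a core that ETS-family factors such as the nuclear respiratory factor GABP recognise, stood on either strand in 23 of the 72 (31.9%), against 13.0% of all promoters. AAGATGGC, the core bound by YY1, stood in 18.1% against 4.26%, and GCATGCGC, the centre of the NRF1 site, in 13.9% against 3.87%. GGGCGG (SP1) and CCAAT (NF-Y) were not more frequent in members, at 45.8% against 50.2% and 34.7% against 38.3%. The ETS and YY1 letters can overlap where they share AAG. A match is a description of the letters and no evidence of binding.

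Of the members called on day 6, 7 carry ETS, YY1 or NRF1 letters within the last 100 bases before the start site. The 4 of these with the smallest p are printed to show how such letters sit in a promoter, and all 4 hold the ETS letters. Each runs 5′ to 3′ along the gene's own strand, which is the minus strand for all 4, and capitals mark the ETS letters, CCGGAAG or their reverse complement. They lie at chr8:59850642-59850741 (Sdhd), chr8:89601150-89601249 (Cox7a2), chr19:41477292-41477391 (Ndufb7) and chr10:38089979-38090078 (Uqcrq). The start site is that of the promoter table. For Sdhd and Ndufb7 it is the 5′ end of the gene, while for Cox7a2 and Uqcrq it lies 9883 and 3893 bases inside the annotated gene, so that these 2 stretches are not upstream of the whole gene.
Sdhd: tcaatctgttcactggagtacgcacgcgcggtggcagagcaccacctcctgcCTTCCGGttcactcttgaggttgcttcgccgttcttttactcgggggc
Cox7a2: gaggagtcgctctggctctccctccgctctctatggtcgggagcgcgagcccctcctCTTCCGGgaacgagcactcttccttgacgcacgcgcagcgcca
Ndufb7: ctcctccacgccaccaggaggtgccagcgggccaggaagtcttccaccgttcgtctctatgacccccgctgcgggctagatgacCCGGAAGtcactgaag
Uqcrq: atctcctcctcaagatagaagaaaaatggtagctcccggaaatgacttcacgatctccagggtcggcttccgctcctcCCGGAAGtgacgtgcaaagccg
In Ndufb7 and Uqcrq the letters read forward and end 10 and 16 bases before the start, and in Sdhd and Cox7a2 they read in reverse and end 42 and 37 bases before it. Members called on day 6 held the ETS letters in 11 of 26 promoters (42.3%) and the others in 12 of 46 (26.1%); this difference was not tested.

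On day 6, 29 of the 79 members were higher in cyclic hyperoxia than in room air as the mean of both strains, and 0 were lower (36.7% called; limma, Benjamini-Hochberg adjusted p under 0.05 over all genes). Of all genes, 6.74% were called, 4.01% as higher and 2.73% as lower, and among genes at or above the median level, where 74 members lie, 6.95% were higher. The median member change was 0.32 on the log2 scale against -0.01 for all genes, and 71 members had a change above 0. In 41 members every hyperoxia array lay above every room air array of its strain, in both strains, and in 1 every one lay below, against 8.49% and 6.42% of all genes. All 29 called members were among the 41. Called members came from every complex: 16 of 36 in complex I, 2 of 7 in II, 1 of 7 in III, 4 of 13 in IV and 6 of 16 in V, with median changes of 0.32, 0.30, 0.35, 0.27 and 0.25. These counts include assembly factors and tissue-restricted isoforms. Of the 4 enzyme subunits of complex II 2 were called, and of the 8 common subunits of complex IV 4. Both sets, formed with the values known, had a median of 0.34.

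How many members pass depends on single arrays. The count was 2 without replicate 1 of SD hyperoxia day 6, 10 and 11 without replicate 1 or 2 of F344 room air day 6, 15 without replicate 1 of SD room air day 6 and 17 without replicate 2 of F344 hyperoxia day 6, against 21 to 37 without any other array. Ndufb3 and Cox7b were called in all 16 of these fits. Without replicate 2 of F344 hyperoxia day 6, the array that stands apart, the changes of Ndufa2, Ndufs5, Cox7a2 and Atp5mk were 0.71, 0.57, 0.54 and 0.52, with adjusted p-values of 0.0316, 0.0117, 0.0242 and 0.0468. Cox5b (0.45), Ndufa4 (0.31) and Sdhb (0.28) then missed the threshold, at adjusted p = 0.0803, 0.0507 and 0.0953, and Uqcrc1 (0.49) passed it, at 0.0379. Cox6b2 and Cox7a2l changed by 0.22 and 0.4 without the same array. The median change over the members moved little, between 0.29 and 0.34 over the 16 fits.

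**Figure D1:**
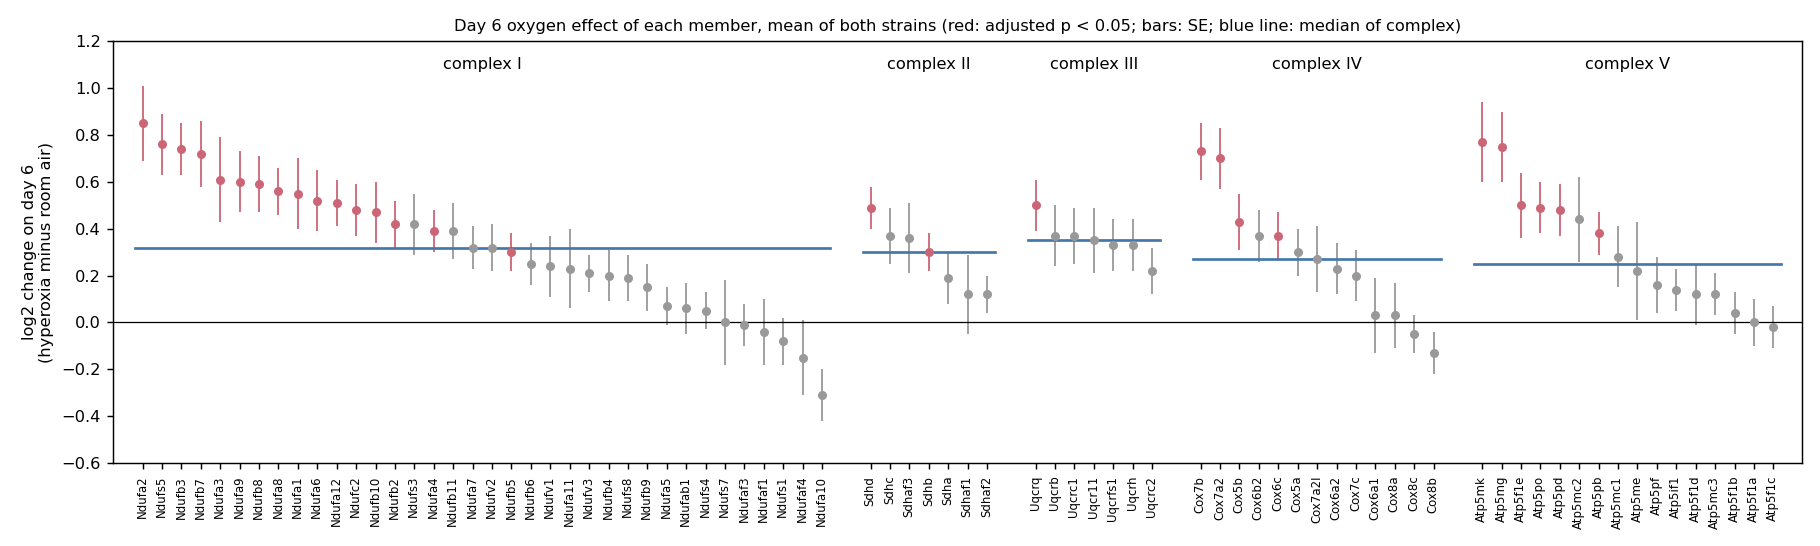
Oxygen effect on day 6 for each of the 79 members, as the log2 change (cyclic hyperoxia minus room air, mean of both strains; y axis) with its standard error, grouped by complex and sorted within it (x axis). Red points passed an adjusted p of 0.05 and blue lines mark the median of each complex, from 0.25 to 0.35; Ndufa2 is highest at 0.85 and Ndufa10 lowest at -0.31.

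In the plot of each member's day 6 change, as the mean of both strains with all arrays, accessory and core subunits of complex I differed. This complex consists of a core of catalytic subunits and many accessory subunits around it. Of the 27 accessory subunits by name 16 were called, with a median of 0.42; without Ndufa4, which is now counted as a subunit of complex IV, 15 of 26 were called, with a median of 0.44. Of the 6 nuclear core subunits measured 0 were called, with a median of 0.22 and values from -0.08 (Ndufs1) to 0.42 (Ndufs3, adjusted p above 0.05). Medians in F344 were 0.42 for accessory and 0.05 for core subunits, and in SD 0.37 and 0.31. The low F344 core median leans on replicate 2 of F344 hyperoxia day 6. This array lay below both room air arrays in Ndufs1, Ndufs7, Ndufs8 and Ndufv1 (9.62, 8.2, 7.86 and 9.91). Replicate 1 lay above both in the same genes (10.13, 8.71, 8.29 and 10.34). In Ndufs3 and Ndufv2 both replicates lay above the controls. Without replicate 2 of F344 hyperoxia day 6, Ndufs1 and Ndufv1 changed by 0.05 and 0.35 over both strains. Medians of accessory and core subunits without this array were not taken, so how far their differences rest on it was not tested. These role groups follow general knowledge of the complexes and were formed with the values known, so the contrast between them is a description with no test.

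Ndufb3, an accessory subunit of the membrane arm (probe set 10923576, gene at chr9:67623417-67633629 on GRCr8), had the smallest p of the members. Its F344 day 6 arrays read 8.45 and 8.52 in room air and 9.44 and 9.83 in hyperoxia, and its SD arrays 8.39 and 8.35 against 8.74 and 8.68. Both hyperoxia pairs lay clear of their controls, and the F344 pair stood far above all other arrays of that day. The mean change was 0.74 ± 0.11 (SE, n = 2 arrays per group), or 1.68-fold, with a limma adjusted p of 0.00325. Ndufa8, an accessory subunit with twin cysteine motifs, read 7.69 and 7.66 in room air and 8.16 and 8.44 in hyperoxia in F344, and 7.70 and 7.67 against 8.27 and 8.08 in SD. Again no arrays overlapped, and the controls of both strains were nearly level (0.56 ± 0.10, adjusted p = 0.00712).

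Ndufa2, another accessory subunit, gave the largest change of all members. In F344 it read 6.35 and 6.54 in room air against 6.97 and 7.55, and in SD 5.83 and 5.87 against 6.70 and 6.77. Its hyperoxia arrays lay above the controls of their strain, though the 2 F344 hyperoxia arrays lay well apart (0.85 ± 0.16, 1.80-fold, adjusted p = 0.00901). Ndufs5, on the intermembrane side of the complex, rose by a similar amount (0.76 ± 0.13, adjusted p = 0.0065), with F344 values of 8.33 and 8.32 against 8.63 and 9.38 and SD values of 8.11 and 8.37 against 9.15 and 9.0. The probe set used for Ndufs5 is numbered among sets of another chromosome than the gene's own and may read a copy; the second set of the gene changed by 0.70. Other called accessory subunits included Ndufb7 (0.72 ± 0.14), Ndufa3 (0.61 ± 0.18), Ndufa9 (0.60 ± 0.13) and Ndufb8 (0.59 ± 0.12).

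Among the core members of complex I, Ndufs1, which holds iron-sulphur clusters, did not pass (-0.08 ± 0.10, adjusted p = 0.694), nor did Ndufv1, which binds NADH (0.24 ± 0.13, adjusted p = 0.28). In F344 Ndufs1 read 9.92 and 9.91 in room air and 10.13 and 9.62 in hyperoxia, so the hyperoxia arrays fell on both sides of the controls. Ndufa4 was higher by 0.39 ± 0.09 (adjusted p = 0.0167). Ndufa10 was the member with the lowest change (-0.31 on day 6), and its arrays lay below the controls in both strains. Its probe set is numbered among sets of another chromosome than the gene's own, and the rat has a near-identical copy, Ndufa10l1, so its values are uncertain. The assembly factors Ndufaf1, Ndufaf3 and Ndufaf4 had no call, and as a group the 7 assembly and supercomplex factors gave 0 calls with a median of 0.12, against 29 of 71 and 0.33 for the subunits.

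In complex II, which is also the succinate dehydrogenase of the citric acid cycle, the membrane anchor Sdhd rose most. It read 8.99 and 9.0 in room air and 9.56 and 9.51 in hyperoxia in F344, and 9.07 and 9.04 against 9.56 and 9.42 in SD. Hyperoxia arrays of both strains were alike and clear of the controls (0.49 ± 0.09, 1.40-fold, adjusted p = 0.00825). Sdhb, the iron-sulphur subunit, was called with a smaller change (0.30 ± 0.08, adjusted p = 0.0408), and Sdha, the flavoprotein that oxidises succinate, was not (0.19 ± 0.11, adjusted p = 0.322). The other anchor subunit, Sdhc, differed in appearance between strains and is described with them.

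In complex III only Uqcrq, a small subunit near the ubiquinone site, was called from the probe sets used (0.50 ± 0.11, adjusted p = 0.0153). It read 7.68 and 7.93 in room air and 8.20 and 8.34 in hyperoxia in F344, and 7.64 and 7.47 against 8.19 and 7.99 in SD, with no overlap in either strain. The other 6 members did not pass, yet all 7 had an unadjusted p under 0.05 and their changes lay close together, from 0.22 (Uqcrc2) to 0.50. They include the Rieske iron-sulphur protein Uqcrfs1 (0.33 ± 0.11, adjusted p = 0.0837) and the core protein Uqcrc1 (0.37 ± 0.12, adjusted p = 0.0835). The probe set used for Uqcrb (0.37) is numbered among sets of another chromosome than the gene's own and may read a copy. With every probe set tested on its own, the Uqcrb set on the gene's chromosome changed by 0.45 and passed (limma adjusted p = 0.0416). A further Uqcrb set, also numbered among sets of another chromosome, changed by 0.44 and did not pass (limma adjusted p = 0.0708).

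In complex IV, Cox7b, a small membrane subunit, had the second smallest p of all members (0.73 ± 0.12, 1.66-fold, adjusted p = 0.00455). It read 8.16 and 8.22 in room air and 8.82 and 9.06 in hyperoxia in F344, and 7.87 and 8.01 against 8.51 and 8.81 in SD. Both strains moved by nearly the same amount and without overlap. Cox7a2, the isoform of subunit VIIa used outside heart and muscle, rose by 0.70 ± 0.13 (adjusted p = 0.00899), with F344 values of 10.76 and 10.54 against 10.93 and 11.54 and SD values of 10.07 and 10.22 against 11.05 and 10.86. A second probe set of the gene changed by 0.72. Cox5b was called (0.43 ± 0.12, adjusted p = 0.0445), its partner Cox5a was not (0.30 ± 0.10, adjusted p = 0.0731), and Cox6c was the remaining called member (0.37 ± 0.10).

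The isoforms of complex IV did not move as one. Cox6a1 and Cox8a, the isoforms found in most tissues, had changes of 0.03 ± 0.16 and 0.03 ± 0.14 and overlapping arrays, although both lay at high levels, between 9.37 and 10.34 on all 16 arrays. The testis isoform Cox6b2 (0.37 ± 0.11, adjusted p = 0.0553) and the heart and muscle isoform Cox6a2 (0.23 ± 0.11, adjusted p = 0.235) did not pass. Cox8b and Cox8c, both at the level of background, had changes of -0.13 and -0.05. Cox7a2l, a factor that joins complexes III and IV, changed by 0.27 ± 0.14 (adjusted p = 0.25).

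In complex V, 5 of the 6 called members belong to the membrane part and the peripheral stalk. The remaining 1 is the small epsilon subunit of the F1 part. Atp5mg, a small membrane subunit that helps ATP synthases pair, read 6.84 and 6.80 in room air and 7.08 and 7.51 in hyperoxia in F344, and 6.4 and 6.06 against 7.35 and 7.14 in SD. The SD arrays were further apart from their controls than the F344 arrays (mean 0.75 ± 0.15, 1.68-fold, adjusted p = 0.0108). Atp5mk, another small membrane subunit, rose by 0.77 ± 0.17 (adjusted p = 0.0181). Its F344 values of 10.26 and 9.89 against 10.27 and 11.27 were separated by only 0.01 at the nearest pair. In SD it read 9.09 and 9.68 against 10.25 and 10.22. The second probe set of Atp5mk, numbered among sets of another chromosome, changed by 0.66. With every probe set tested on its own, that set did not pass (limma adjusted p = 0.0538). Stalk subunits Atp5pd, Atp5po and Atp5pb were called as well, with 0.48, 0.49 and 0.38, which makes 3 of 4 in the stalk. Both probe sets of Atp5pd are numbered among sets of other chromosomes than the gene's own and may read copies. The second set changed by 0.57.

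Of the 5 subunits of the F1 part, which makes ATP, the small epsilon subunit Atp5f1e was called (0.50 ± 0.14, adjusted p = 0.0438). Its probe set is numbered on another chromosome than the gene. The catalytic Atp5f1b (0.04 ± 0.09) and its partner Atp5f1a (0.00 ± 0.10) had changes near 0, at mean levels among the highest of all members. Atp5f1a read 11.19 and 11.18 in F344 room air and 11.36 and 10.81 in hyperoxia, so that the pair of hyperoxia arrays straddled the controls, and leaving out single arrays turned the sign of its change. The 3 genes of the c-ring, Atp5mc1, Atp5mc2 and Atp5mc3, encode the same mature protein and did not pass (0.28 ± 0.13, 0.44 ± 0.18 and 0.12 ± 0.09). Nor did the inhibitor Atp5if1 (0.14 ± 0.09, adjusted p = 0.385).

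**Figure D2:**
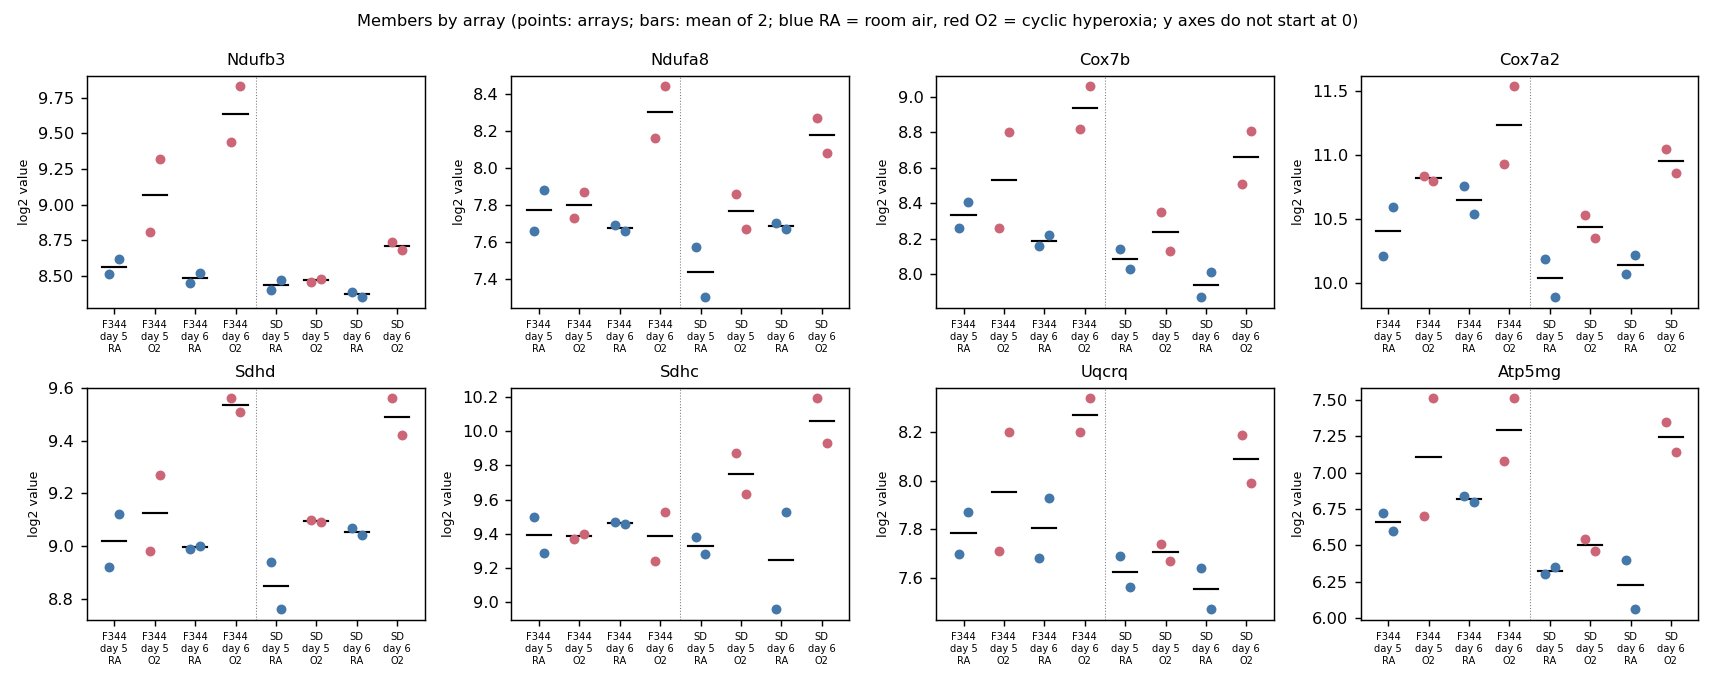
Log2 expression value (y axis, not from 0) of 8 members on each array (points) of the 8 groups (x axis), with the mean of the 2 arrays as a bar; RA is room air and O2 cyclic hyperoxia. On day 6 Ndufb3 shows a wider gap in F344 than in SD, and Sdhc a gap in SD only, though neither strain difference was called. Cox7b, Sdhd and Ndufa8 show similar gaps on day 6 in both strains.

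Each strain alone gave fewer calls, as the plot of members by array illustrates. F344 on day 6 had 4 members higher and 0 lower (background 1.19% of all genes called, 0.342% as higher), with a median change of 0.30 and 31 members at an unadjusted p under 0.05 (17.6% of all genes). The called ones were Ndufb3 (1.15 ± 0.15, 2.22-fold, adjusted p = 0.0105), Ndufa8 (0.63 ± 0.14, adjusted p = 0.0418), Cox7b (0.74 ± 0.16, adjusted p = 0.0427) and Sdhd (0.54 ± 0.12, adjusted p = 0.0464). The calls of all genes in this comparison were 28.8% higher as deposited, but 69.5% with arrays centred on their median and 58.4% after quantile normalization; all member calls were higher under each of the 3. Without replicate 2 of F344 hyperoxia day 6, or either F344 room air day 6 array, 0 members were called; without replicate 1 of F344 hyperoxia day 6, 17 were. The count was 1 without any one of the 4 SD hyperoxia arrays of either day.

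SD on day 6 had 8 members higher and 0 lower (background 2.79%, 2.23% as higher), with a median change of 0.34 and 39 members at an unadjusted p under 0.05 (18.8% of all genes). Atp5mg changed most (1.02 ± 0.21, 2.03-fold, adjusted p = 0.0198), followed by Ndufa2 (0.88 ± 0.22, adjusted p = 0.0472), Ndufa9 (0.86 ± 0.18, adjusted p = 0.021), Ndufb7 (0.85 ± 0.20, adjusted p = 0.0325), Ndufs5 (0.84 ± 0.18, adjusted p = 0.0245), Sdhc (0.82 ± 0.17, adjusted p = 0.021), Cox7a2 (0.81 ± 0.18, adjusted p = 0.0295) and Cox7b (0.72 ± 0.16, adjusted p = 0.0291). Cox7b was the 1 member called in both strains, which is 1 of 4 and 1 of 8. Higher calls made up 79.8% of all gene calls here, 62.4% with centred arrays and 64.4% after quantile normalization. Without either SD hyperoxia day 6 array or replicate 1 of SD room air day 6 the count was 0, and 2 without replicate 2 of the latter; without either F344 hyperoxia day 6 array it was 20.

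That calls differ does not show that the strains do. Changes were above 0 in both strains for 59 members and below 0 in both for 4, and across the members the changes of the 2 strains, which share no arrays, had r = 0.58 (Spearman's rho 0.61, n = 79 genes, which are not independent replicates; r = 0.33 over all genes). In the test of the difference itself, SD minus F344, 0 members were called on day 6 (background 0.0559%) and 5 had an unadjusted p under 0.05 (11.5% of all genes). Sdhc and Ndufb3 were the 2 with the smallest p. Sdhc read 9.47 and 9.46 in room air and 9.24 and 9.53 in hyperoxia in F344, but 8.96 and 9.53 against 10.19 and 9.93 in SD. The F344 arrays overlapped and the SD arrays did not, and the 2 SD controls lay far apart; the strain difference was 0.89 ± 0.24 (adjusted p = 0.14). For Ndufb3 it was -0.81 ± 0.21 (adjusted p = 0.14). Without replicate 1 of F344 hyperoxia day 6, 1 member was called.

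**Figure D3:**
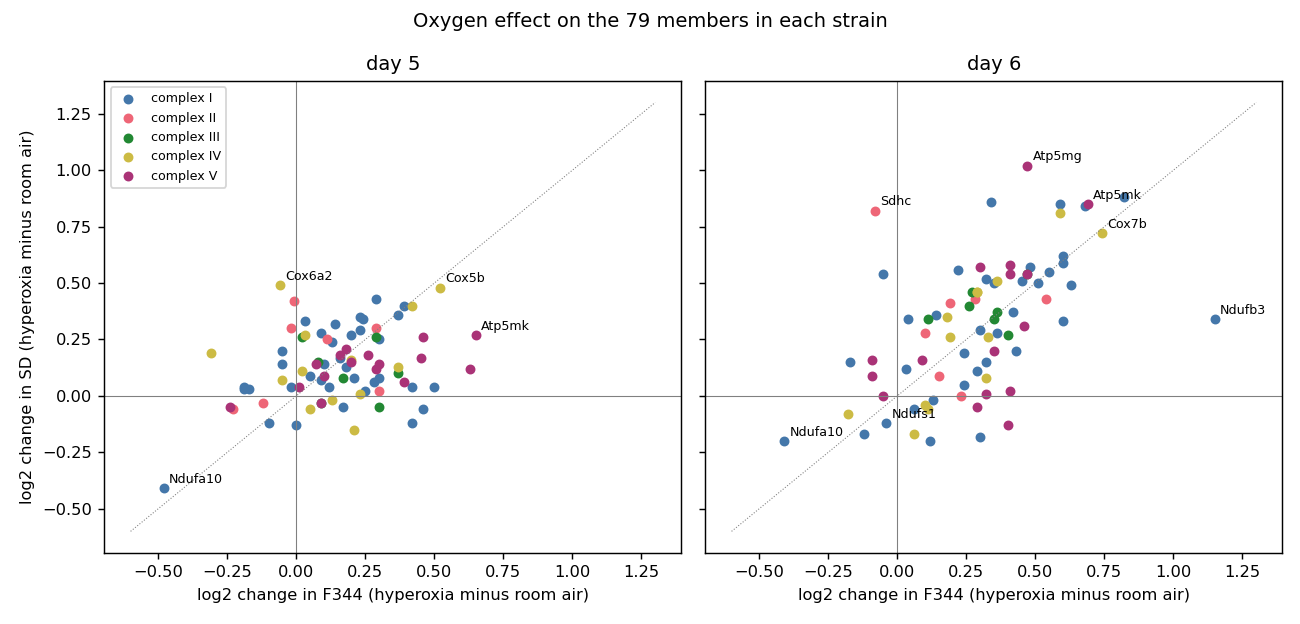
Log2 change of each of the 79 members in F344 (x axis) against SD (y axis), on day 5 (left) and day 6 (right), coloured by complex; the dotted line marks equal change. On day 6 most points lie up and to the right of 0, with Ndufb3 far towards F344 and Sdhc and Atp5mg towards SD; on day 5 the points lie closer to 0.

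On day 5, the left panel of the plot that sets the strains against each other, 0 members were called in F344, in SD or in the mean of both. Backgrounds were 0.126%, 0.0628% and 0.209%, all of them genes that were lower in hyperoxia. Members with an unadjusted p under 0.05 numbered 14, 11 and 19, against 8.36%, 9.05% and 11.2% of all genes. Median changes were 0.17 in F344, 0.13 in SD and 0.16 in the mean, where 68 of 79 members had a change above 0. The F344 value rests on a pair of arrays that differ: over the members, replicate 2 of F344 hyperoxia day 5 lay 0.32 above replicate 1 at the median, as much as the median day 6 change. Without replicate 2 the F344 median was -0.01, and without replicate 1 it was 0.31; the median of both strains without replicate 2 was 0.06. Without replicate 2 of F344 room air day 5, 2 members were called.

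Cox5b, a subunit on the matrix side of complex IV, had the smallest adjusted p of day 5. It read 7.73 and 8.34 in room air and 8.38 and 8.72 in hyperoxia in F344, and 7.88 and 7.79 against 8.36 and 8.26 in SD. No arrays overlapped, but the F344 controls lay far apart (0.50 ± 0.12, adjusted p = 0.15). Ndufa10 had a change of -0.44 ± 0.11 (adjusted p = 0.156), with the doubt about its probe set named above. The members with the largest day 5 change in the other complexes were Sdhb (0.30 ± 0.08, adjusted p = 0.197), Uqcrc1 (0.27 ± 0.12, adjusted p = 0.416) and Atp5mk (0.46 ± 0.17, adjusted p = 0.359). In F344 alone Ndufb3 had the smallest p (0.50 ± 0.15, adjusted p = 0.345), and in SD Cox6a2 (0.49 ± 0.16, adjusted p = 0.419). The strain difference on day 5 gave 0 calls (background 0.0%), with Cox6a2 (0.56 ± 0.22) and Cox7c (0.50 ± 0.23) at adjusted p = 0.807.

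Whether the oxygen effect was larger on day 6 than on day 5 was tested directly. The median difference over the members was 0.14, 62 of 79 differences were above 0, and 13 had an unadjusted p under 0.05, all of them with the larger effect on day 6 (8.46% of all genes had such a p in either direction). By the adjusted p 0 members were called (background 0.182%). Cox7b (0.56 ± 0.16, adjusted p = 0.308) and Ndufa6 (0.60 ± 0.19, adjusted p = 0.368) came first. Without replicate 1 of F344 hyperoxia day 6, 1 member was called.

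The days can also be compared within each oxygen condition, on the same arrays that enter the oxygen effects. From day 5 to day 6 in hyperoxia 6 members rose and 0 fell (background 4.8%, 2.1% as higher), with a median of 0.21 and 33 members at an unadjusted p under 0.05 (18.3% of all genes). They were Ndufa8 (0.46 ± 0.10, adjusted p = 0.0111), Sdhd (0.40 ± 0.09, adjusted p = 0.0118), Ndufa2 (0.67 ± 0.16, adjusted p = 0.0212), Ndufb3 (0.41 ± 0.11, adjusted p = 0.0414), Ndufs5 (0.48 ± 0.13, adjusted p = 0.0434) and Ndufb5 (0.31 ± 0.08, adjusted p = 0.0437). The count ran from 0 (without replicate 1 of F344 hyperoxia day 5 or of SD hyperoxia day 6) to 20 (without replicate 1 of F344 hyperoxia day 6, 19 higher and 1 lower). It was 17 without replicate 2 of F344 hyperoxia day 5, and 1 to 3 without any SD array of day 5, either F344 room air array of day 6, or replicate 2 of either hyperoxia group of day 6. In room air 0 members were called between the days (background 3.0%, 1.29% as higher) with a median of 0.04, and the smallest p-values were those of Atp5mc3 (0.25 ± 0.09, adjusted p = 0.203) and Atp5f1b (0.22 ± 0.09, adjusted p = 0.226). Without replicate 2 of F344 room air day 5, 3 were called, 1 higher and 2 lower on day 6.

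**Figure D4:**
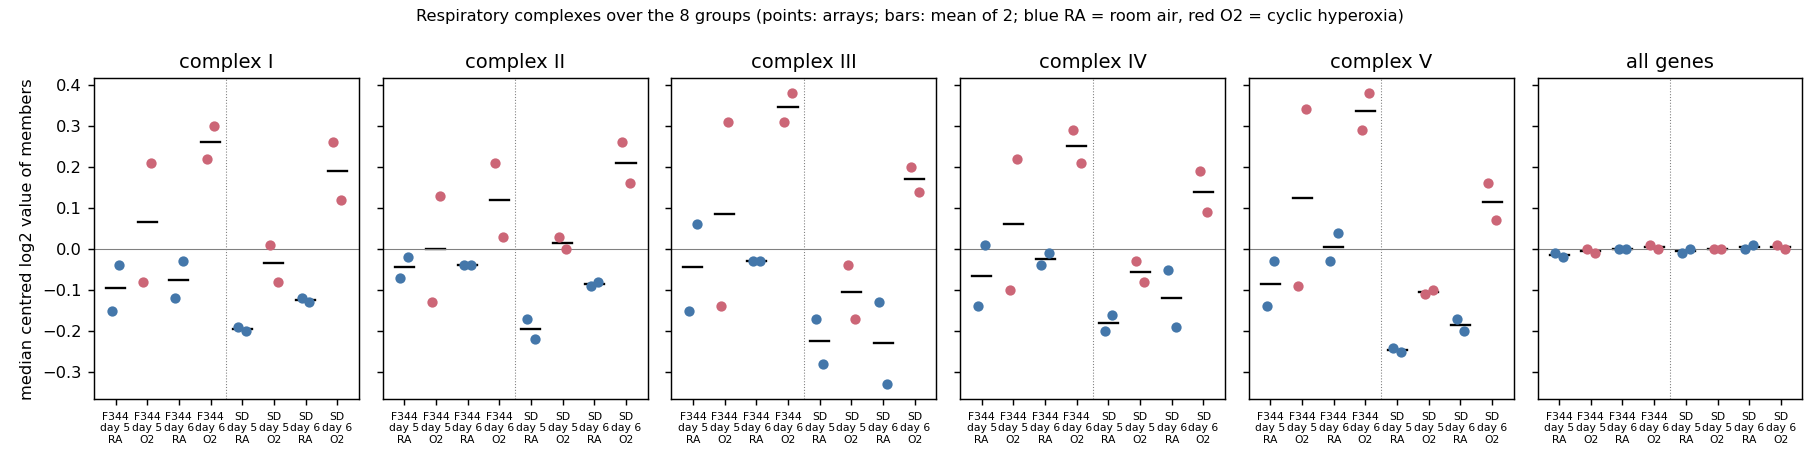
Median over the members of each complex, and over all genes, of log2 values centred on each gene's mean over the 16 arrays (y axis), for every array (points) of the 8 groups (x axis), with the mean of 2 arrays as a bar; RA is room air and O2 cyclic hyperoxia. All 5 complexes are lowest in SD room air, and hyperoxia day 6 is the highest condition in each strain; the 2 F344 hyperoxia day 5 arrays lie far apart.

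Across the 8 groups, the 5 complexes followed one another, as the plot of complex medians shows. For each array the median over a complex was taken after centring each gene on its mean. Every complex was lowest in room air in SD, on day 5 for complexes I, II, IV and V and at nearly the same value on both days for complex III. Complexes I, III, IV and V were highest in F344 hyperoxia day 6 and complex II in SD hyperoxia day 6. Complex I ran from -0.20 to 0.30, complex II from -0.22 to 0.26, complex III from -0.33 to 0.38, complex IV from -0.20 to 0.29 and complex V from -0.25 to 0.38, while the median of all genes stayed between -0.02 and 0.01. The maxima of complexes I, III and V are those of replicate 2 of F344 hyperoxia day 6; replicate 1 read 0.22, 0.31 and 0.29. The SD between replicates, pooled over the groups, was 0.093, 0.084, 0.143, 0.101 and 0.118 for complexes I to V. For single members, 43 of 79 had their highest group mean in F344 hyperoxia day 6 and 21 in SD hyperoxia day 6, against 16.4% and 15.6% of all genes. The lowest mean fell in SD room air of day 5 for 28 and of day 6 for 20, against 10.3% and 11.8%.

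No test between complexes was run. Median day 6 changes of the 5 complexes spanned 0.25 to 0.35, less than the range of members within each of them. By strain, complex II had 0.19 in F344 and 0.41 in SD, and complex V 0.38 in F344 and 0.18 in SD, with no member called for a strain difference. Without replicate 2 of F344 room air day 6 the complex V median was 0.37, and without replicate 2 of F344 hyperoxia day 5 the complex I median on day 5 was 0.05 in place of 0.16. The day 6 change had no relation in rank to the level of a member (Spearman's rho -0.02 over 79 genes) or to the length of its gene (-0.04), while over all genes brighter genes tended to have lower changes (-0.23).

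In room air, 10 members differed between the strains over both days, 3 higher and 7 lower in SD than in F344 (background 9.35%, 4.02% as higher); the share of members called, 12.7%, was close to that background. The median difference was -0.13, and 53 of 79 were below 0. Scaling bears on the direction: all gene calls were 43.0% higher as deposited and 67.7% with centred arrays, and the members then gave 4 higher and 4 lower. Uqcrc1, the core protein of complex III, was lowest in SD relative to F344. In room air it read 8.32, 8.78, 8.70 and 8.77 on the F344 arrays of days 5 and 6, and 7.97, 7.88, 8.22 and 7.97 on those of SD. No SD array reached an F344 array (-0.63 ± 0.12, adjusted p = 0.00518). Ndufb8, an accessory subunit of complex I, read 7.50, 7.90, 7.74 and 7.87 in F344 and 7.18, 7.08, 7.45 and 7.08 in SD, likewise without overlap (-0.55 ± 0.12, adjusted p = 0.0105).

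The other members lower in SD were Ndufb7 (-0.53 ± 0.14), Ndufa9 (-0.44 ± 0.13), Cox7a2 (-0.43 ± 0.13), Atp5mc3 (-0.35 ± 0.09) and the catalytic ATP synthase subunit Atp5f1b (-0.34 ± 0.09), with adjusted p-values from 0.0232 to 0.0468. Ndufs4, an accessory subunit at the electron input of complex I, was higher in SD. It read 9.74, 9.59, 9.42 and 9.34 in F344 and 9.83, 9.97, 9.91 and 9.88 in SD, with all 4 SD arrays on top (0.38 ± 0.08, adjusted p = 0.00629). The assembly factor Ndufaf1 (0.65 ± 0.14, adjusted p = 0.00952) and the inhibitor Atp5if1 (0.37 ± 0.09, adjusted p = 0.0185) were higher as well, with overlap between the strains on day 5. Uqcrc1, Ndufs4 and Ndufaf1 were called in all 16 fits that leave out an array. The count of 10 fell to 3 without replicate 2 of F344 room air day 5, to 4 without replicate 2 of SD room air day 5 or replicate 2 of F344 room air day 6, to 5 without replicate 1 of the latter group and to 6 without either SD room air day 6 array, and was at most 15.

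**Figure D5:**
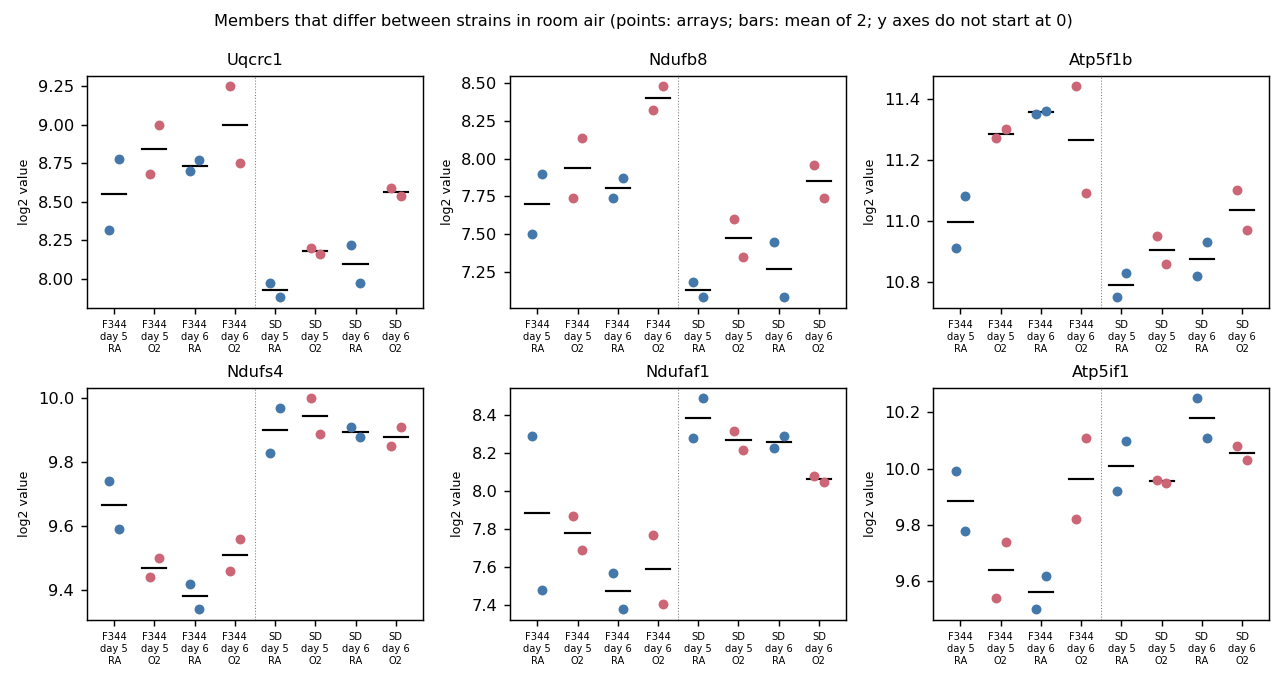
Log2 expression value (y axis, not from 0) on each array (points) of the 8 groups (x axis), with the mean of 2 arrays as a bar, for 6 of the 10 members called between strains in room air. Uqcrc1, Ndufb8 and Atp5f1b lie lower in SD and Ndufs4, Ndufaf1 and Atp5if1 higher; in Ndufaf1 the first F344 room air array of day 5, at 8.29, lies among the SD arrays.

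The plot of these members shows that the strain gap of Uqcrc1 and Ndufs4 was also present in the hyperoxia arrays, which did not enter the comparison: Uqcrc1 read from 8.68 to 9.25 in F344 and from 8.16 to 8.59 in SD, and Ndufs4 at most 9.56 in F344 and at least 9.85 in SD. Markers of rods moved with the strains and days. Over 6 measured rod genes the mean level in room air was 9.21 (F344) and 9.79 (SD) on day 5 and 9.68 and 10.17 on day 6. Gnat1, Pde6b and Sag, 3 of the 6, were called as higher in SD (9.35% of all genes called, 4.02% as higher). In hyperoxia on day 6 the same mean was 9.73 in F344 and 10.22 in SD, close to the controls of that day. For the oxygen effect on day 6, 1 of 6 was called (6.74% of all genes), Nrl, a factor that sets rod fate (0.32 ± 0.08, limma adjusted p = 0.034). The progenitor, ganglion cell, amacrine, muscle, lens, pigment epithelium and erythroid lists gave 0 calls in that comparison. From day 5 to day 6 in hyperoxia, 5 of 6 rod genes were called higher and 3 of 4 progenitor genes lower (4.8% of all genes called). In room air 1 rod gene was higher and 2 progenitor genes lower between the days (3.0%). The part of cell composition in the members' changes was not tested.

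Other genes of mitochondrial respiration, from lists chosen with earlier results of these data known, were followed in the mean of both strains, where 6.74% of all genes were called on day 6, 4.01% as higher. Of 10 electron carriers and ubiquinone-linked dehydrogenases, 3 were higher on day 6: Etfb (0.63 ± 0.11, adjusted p = 0.00669) and Etfa (0.42 ± 0.09), which bring electrons from fatty acid oxidation, and Dhodh (0.35 ± 0.08), which makes pyrimidines. Cytochrome c, Cycs, did not pass (0.31 ± 0.13, adjusted p = 0.163). Among 28 assembly factors with other names 4 were higher, Tmem126b (0.56 ± 0.10, adjusted p = 0.00899), Coa3, Uqcc2 and Dmac2l. Of 12 genes of ubiquinone synthesis 1 was higher, Coq7 (0.45 ± 0.10, adjusted p = 0.0172), a share near that background. Of 12 carriers of the inner and outer membrane 2 were higher, Slc25a5 and Vdac3, and the uncoupling protein Ucp2 was lower (-0.43 ± 0.11, adjusted p = 0.0282). In each of these lists 0 were called on day 5 (0.209% of all genes).

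Of 15 enzymes of the citric acid cycle and pyruvate dehydrogenase, apart from complex II, 0 were called on day 6, with a median of 0.04. Of 19 regulators of mitochondrial biogenesis and genome expression 1 was higher, Polg2 (0.33 ± 0.09, adjusted p = 0.0456), a share near that of all genes called on day 6 (6.74%, 4.01% as higher). The master regulator Ppargc1a (-0.10 ± 0.11), the transcription factor Nrf1 (0.12 ± 0.07) and the mitochondrial DNA-binding factor Tfam (-0.03 ± 0.08), chosen after their values were seen, did not pass. Between strains in room air 4 of the 19 were higher in SD and 4 lower (background 9.35%), with a median of 0.04. Their differences ran from -0.47 for Pprc1, a relative of Ppargc1a, to 0.84 for Ppargc1a (± 0.11, adjusted p = 0.000276).

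Genes known to respond to hypoxia, mostly mitochondrial and including Egln3 and Vegfa, formed another list. Of these 12 genes 5 were lower in hyperoxia on day 5, with a median of -0.48, and 7 were higher on day 6, with a median of 0.37 (0.209% and 6.74% of all genes called on these days). Egln3 (-1.28 ± 0.10), Ak4 (-1.18 ± 0.10), Vegfa (-0.92 ± 0.09), Bnip3 (-0.86 ± 0.09) and Pdk1 (-0.86 ± 0.08) were those that fell on day 5, all with adjusted p-values of 0.00013 or less. On day 6 Higd1a, a hypoxia-induced partner of complex IV, was higher by 0.78 ± 0.09 (adjusted p = 0.00216). So were Ak4 (0.64 ± 0.10), Cox4i2 (0.87 ± 0.16) and Egln3 (0.56 ± 0.10), among others. Members had a median of 0.16 on day 5 and 0.32 on day 6; a difference between the members and this list was not tested.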

How the data were processed

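Total RNA of rat retinae was hybridised to single-colour Affymetrix gene arrays. Per the submitters' processing notes the deposited log2 values were made by the authors with Partek 6.4 and RMA, which corrects background, quantile-normalizes and summarises probes; no scanner files were analysed here, so a shift shared by most transcripts would not be seen.

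Names came from the array's annotation: of 27342 probe sets, 15097 had 1 symbol, 323 several and 11922 were not listed. The set with the highest mean was taken per gene (9 members have several sets), which left 14324 genes; names and positions come from RefSeq, GRCr8. Probe set numbers follow genome order, so sets numbered among genes of another chromosome were treated as possible copies: 6 of the 79 sets used, those of Atp5f1e, Atp5pd, Ndufa10, Ndufs5, Ndufv3 and Uqcrb.

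A model with 8 group means was fitted to the 16 arrays with limma 3.58.1 in R 4.3.3 (8 residual and 7.41 prior degrees of freedom), with Benjamini-Hochberg adjustment over all genes of a contrast and calls at an adjusted p under 0.05. Changes are given ± moderated SE, n = 2 arrays per group, two-sided; folds are ratios of geometric means. The fit was tested on simulated data. Same-numbered replicates were checked for pairing: over 28 pairs of groups their deviations correlated from -0.29 to 0.52, with 8 over 0.1, and the labels tie no number to a litter, so no block was used.

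The members and all gene lists were chosen with earlier results of these data known. Named genes are set core members and isoforms, called members (the 4 largest where over 8 were called, or the 2 with the smallest p where none was), and the largest change of each complex and day; other members named as called or as examples were chosen after their values were seen. Alternatives were array scaling, a filter on dim genes, the handling of probe sets, a replicate block, array weights, the prior, the arrays in the fit, the membership rule, and each array left out.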

Additional observations from a re-analysis of the deposited data

How the results depend on the processing

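Directions of medians and calls under other settings were as follows, and unless named the cause was not tested. On day 6 in F344 the 4 called members became 1 with every probe set tested on its own, 1 with an intensity trend and robust prior, and 0 with array weights or only the arrays of that day (fewer arrays, fewer degrees of freedom); the median was 0.40 with centred arrays, which move all genes by 0.10. In SD the 8 became 18 with array weights and 3 with only that day's arrays, and the 29 of both strains became 17 with array weights. The median strain difference of day 6 was -0.07 with centred arrays. The 6 members that rose between days in hyperoxia were 10 after quantile normalization and 3 with every probe set on its own. With the replicate number as a block, which the data do not bear out as a pairing, 25 members were called on day 6 in both strains, 3 in F344 and 9 in SD, and 10 between strains in room air. The probe set on a gene's own chromosome, an alternative added after seeing the data, gave 30. Leaving out each array in turn gave 0 to 17 called members for F344 day 6, 0 to 20 for SD day 6, 2 to 37 for both strains day 6, 0 to 2 for both strains day 5, 0 to 1 for the strain and for the day difference of the oxygen effect, 3 to 15 for strains and 0 to 3 for days in room air, and 0 to 20 for days in hyperoxia. Medians then ran from -0.01 to 0.31 (F344 day 5), 0.06 to 0.23 (both strains day 5), -0.13 to 0.13 and -0.05 to 0.11 (strain differences, days 5 and 6), 0.09 to 0.24 (day difference), 0.05 to 0.24 (complex I, day 5) and 0.17 to 0.37 (complex V, day 6). Signs turned for members near 0 on day 6, none called: Atp5f1a (-0.01 after quantile normalization, -0.14 to 0.14 without single arrays), Atp5f1b (-0.05 to 0.13), Cox6a1 (-0.09 to 0.16), Cox8a (-0.07 to 0.12) and Ndufs1 (-0.20 to 0.05).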
